A study of Brassica napus and Camelina sativa and Thlaspi arvense with 24 samples.

Results

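The end segments of chromosomes C09 and A10 of *Brassica napus* were followed in 2 lines, DH12075 and N99. The members were chosen from values measured in these same libraries, so their differences between the lines describe that choice and were not tested. They were the genes with IDs from BnaC09g070620.3DH to BnaC09g076620.3DH and from BnaA10g028870.3DH to BnaA10g033100.3DH that had a mean of at least 1 TPM in either line. TPM is the share of a gene's transcripts among all transcripts of a library, corrected for transcript length and scaled to a fixed total. This gave 517 members of the 45801 genes of the table that reached the same level, and the table lists 123329 IDs. The C09 segment held 277 members among 594 IDs, and the A10 segment held 240 members among 415 IDs. The rest of C09 held 2399 genes at this level, and the rest of A10 held 1407.

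RNA was sequenced from fully expanded cotyledons and true leaves of young seedlings of each line, with 3 biological replicates per line and tissue. The 12 libraries were therefore DH12075 cotyledon, DH12075 leaf, N99 cotyledon and N99 leaf, 3 of each. DH12075 and N99 are genotypes of the oilseed *B. napus*, and the labels name no treatment or added allele for either. The series holds 24 libraries, and those of the other species were not used here. How the lines were derived is not given in the sources used here, and each line stands for 1 genotype.

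*B. napus* is an allotetraploid that carries an A genome of the *B. rapa* type and a C genome of the *B. oleracea* type. Most of its genes therefore occur as homoeologues, one copy on an A chromosome and one on a C chromosome, with very similar sequences. The end of chromosome A10 and the end of chromosome C09 are homoeologous to one another, and ends of such chromosomes are known in this species for being exchanged, lost or doubled during meiosis. The ID numbers rise along a chromosome, so the order of IDs was used here as the order of genes. The IDs carry no gene names, 0 of the members were found in the RefSeq gene table of another *B. napus* genome, and genes are therefore given by ID with no role. For the same reason, the tissue labels were not checked against marker genes.

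Both lines were quantified against transcripts of DH12075. Where the sequence of N99 departs from these, its transcripts may be counted too low, and reads that fit both homoeologues are divided between them by the quantification. The part of either in the values below was not tested. The read depth of the libraries is unknown, because TPM carry no totals of reads. Replicates of a line and tissue correlated across genes at 0.953 to 0.984. One library stood apart, since its 10 highest genes took 37.1% of all TPM (N99 cotyledon replicate 2), against between 7.98% and 11.9% in the other 11 libraries. With a fixed total, this leaves a smaller share for the other genes together in that library, and values without it are given where it bears on a result.

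The members of the C09 segment were low in N99. Summed over the 277 members, DH12075 cotyledon gave 3709, 3510 and 3575 TPM and DH12075 leaf gave 3351, 3433 and 3350 TPM. N99 cotyledon gave 453, 319 and 529 TPM and N99 leaf gave 401, 405 and 391 TPM. All 6 N99 libraries lay far below all 6 DH12075 libraries, and the tissues of a line lay close together. In percent of DH12075, N99 held 12.05% ± 2.96 in cotyledon and 11.8% ± 0.279 in leaf (propagated SD, n = 3 libraries per line).

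The A10 segment went the other way. Summed over its 240 members, DH12075 cotyledon gave 3172, 3136 and 3092 TPM and DH12075 leaf gave 3118, 3300 and 3204 TPM. N99 cotyledon gave 5311, 3518 and 5108 TPM and N99 leaf gave 5574, 5741 and 6272 TPM. The lowest N99 library, cotyledon replicate 2, was the one with the high share of a few genes, and it still lay above every DH12075 library. N99 held 148% ± 31.4 of DH12075 in cotyledon and 183% ± 12.5 in leaf, and 166% in cotyledon without that library.

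Over both segments, the N99 sum was nearer to that of DH12075 than either segment alone. It amounted to 75.5% ± 16.1 of DH12075 in cotyledon, 84.7% without N99 cotyledon replicate 2, and 95.1% ± 5.77 in leaf. On the mean of 6 libraries, the sum from DH12075 to N99 fell by 3072 TPM in the C09 segment and was 2084 TPM higher in the A10 segment. These sums weight a few abundant genes, so the counts of members are given in the following.

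**Figure D1:**
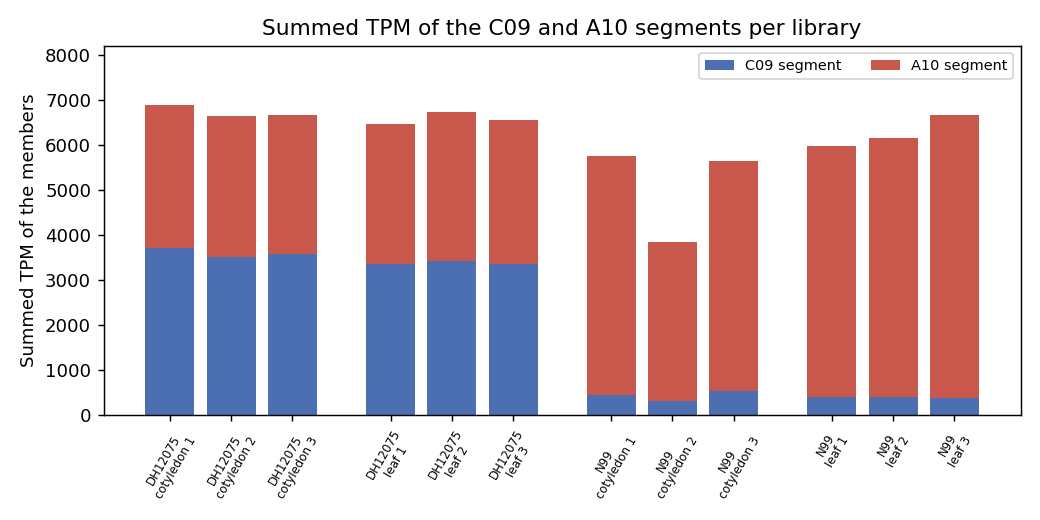
Summed TPM of the members in each of the 12 libraries (vertical axis, from 0), with the C09 segment in blue and the A10 segment stacked on it in red. The blue bars lie between 3350 and 3709 TPM in DH12075 and between 319 and 529 TPM in N99, and the red bars are higher in all N99 libraries.

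Along C09, most members were near 0 in N99. Of the 277 members, 179 were listed in N99 at no more than 1% of DH12075, 34 above that and up to 10%, 35 above 10% and below 50%, and 29 at 50% or more. A level of at most 10% of DH12075 was thus found in 213 members (4.05% of all expressed genes), with 215 in cotyledon alone and 212 in leaf alone. N99 was listed at 0 in all 6 libraries for 95 members (1.24% of all expressed genes). Another 84 members at no more than 1% were above 0 in at least 1 N99 library, and the highest value of any of the 179 in a single N99 library was 0.947 TPM.

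N99 was lower without overlap of the 6 libraries of the lines for 241 members (14.7% of all expressed genes) and higher for 7 (12% of all expressed genes), and for 29 members the lines overlapped. In 3 libraries against 3, N99 was lower without overlap for 251 members in cotyledon (32.7% of all expressed genes) and for 252 in leaf (28.6%). The median log2 ratio of N99 to DH12075, on mean TPM + 1, was -2.07 over the members, 0.00 over the rest of C09 and -0.03 over all expressed genes. Since these values chose the members, nothing is read from the shares beyond their size. Of the 277, 228 reached 1 TPM in DH12075 only, 5 in N99 only and 44 in both, so most could only be lower in N99.

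IDs below that level were accounted for too. Of the 317 IDs of the range that were no members, 134 were listed at 0 in all 12 libraries, 118 were above 0 in DH12075 only, 13 in N99 only and 52 in both. The lowest member had a mean of 1.004 TPM in its higher line and the highest of the others had 0.979 TPM. In the A10 range, 175 IDs were no members, of which 49 were listed at 0 throughout, 5 were above 0 in DH12075 only, 22 in N99 only and 99 in both. There the corresponding levels were 1.02 and 0.964 TPM.

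The left boundary on C09 did not lie at the first member. The first member, BnaC09g070620.3DH, went against the segment, with 0.0767, 0.0447 and 0.0453 TPM in DH12075 cotyledon and 0.159, 0.144 and 0.128 TPM in DH12075 leaf. In N99 it was listed at 12.1, 8.80 and 12.4 TPM in cotyledon and 13.2, 17.0 and 17.7 TPM in leaf. It was near 0 in every DH12075 library and well above in every N99 library. The nearest expressed gene before it, BnaC09g070600.3DH, stood at 140% of DH12075 in N99.

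Scoring each expressed gene of C09 as 1 where N99 was at no more than 10% of DH12075, and as -1 otherwise, placed the best run of low genes from BnaC09g070990.3DH to BnaC09g076640.3DH. This stretch held 261 expressed genes, of which 259 were members and 2 lay beyond the range of IDs. The 18 members before it had a median log2 ratio of 0.22, 11 of them were higher in N99, and 0 were at 10% or less. The 60 expressed genes before the range had a median log2 ratio of 0.02 or 103% of DH12075. Thus the first members of the range had a median near that of the flanking chromosome. Their spread was wider, with quartiles of -0.74 and 0.99 against -0.59 and 0.42 for the 60 genes before.

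The change at this boundary fell between neighbouring genes. BnaC09g070920.3DH was at 54.5% and BnaC09g070930.3DH at 39.1% of DH12075. The latter had 9.53, 8.98 and 9.05 TPM in DH12075 cotyledon against 3.47, 2.37 and 2.64 TPM in N99 cotyledon, and 11.04, 12.99 and 8.65 TPM in DH12075 leaf against 4.29, 5.25 and 5.54 TPM in N99 leaf. It was therefore lowered without being near 0, and its libraries did not overlap. The next expressed gene, BnaC09g070990.3DH, had 30.1, 34.2 and 31.7 TPM in DH12075 cotyledon against 2.003, 1.496 and 2.38 TPM in N99 cotyledon. In leaf it had 24.97, 23.8 and 22.1 TPM in DH12075 against 1.56, 2.15 and 1.58 TPM in N99. After this gene, the 4 expressed genes that follow ranged from 0.810% to 5.96% of DH12075.

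The right boundary on C09 was as narrow. The last member, BnaC09g076620.3DH, had 1.31, 1.45 and 1.17 TPM in DH12075 cotyledon and 1.996, 1.88 and 1.56 TPM in leaf, and was listed at 0 in all N99 libraries. BnaC09g076630.3DH, the nearest expressed gene outside, was listed at 0 in all N99 libraries as well, and BnaC09g076640.3DH was at 1.52%. These 2 genes continue the low stretch past the last member. BnaC09g076650.3DH, the next expressed gene, was at 97.8% of DH12075, with 6.27, 6.25 and 6.04 TPM in DH12075 cotyledon against 6.16, 4.85 and 6.78 TPM in N99 cotyledon. In leaf it had 5.54, 5.82 and 6.15 TPM in DH12075 against 5.88, 6.08 and 5.50 TPM in N99, and the lines overlapped in both tissues.

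The low stretch did not reach the last ID of the chromosome. A further 37 expressed genes followed it, with a median log2 ratio of -0.16 or 87.0% of DH12075. Of them, 1 was at 10% or less and 13 were higher in N99. The most abundant of the first 5, BnaC09g076700.3DH, chosen after its values were seen, had 1923, 2175 and 2144 TPM in DH12075 cotyledon against 1815, 1430 and 1928 TPM in N99 cotyledon. In leaf it had 243, 320 and 363 TPM in DH12075 against 658, 434 and 625 TPM in N99. Its cotyledon libraries overlapped only slightly, with N99 the lower on average, while in leaf N99 lay above DH12075 without overlap.

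**Figure D2:**
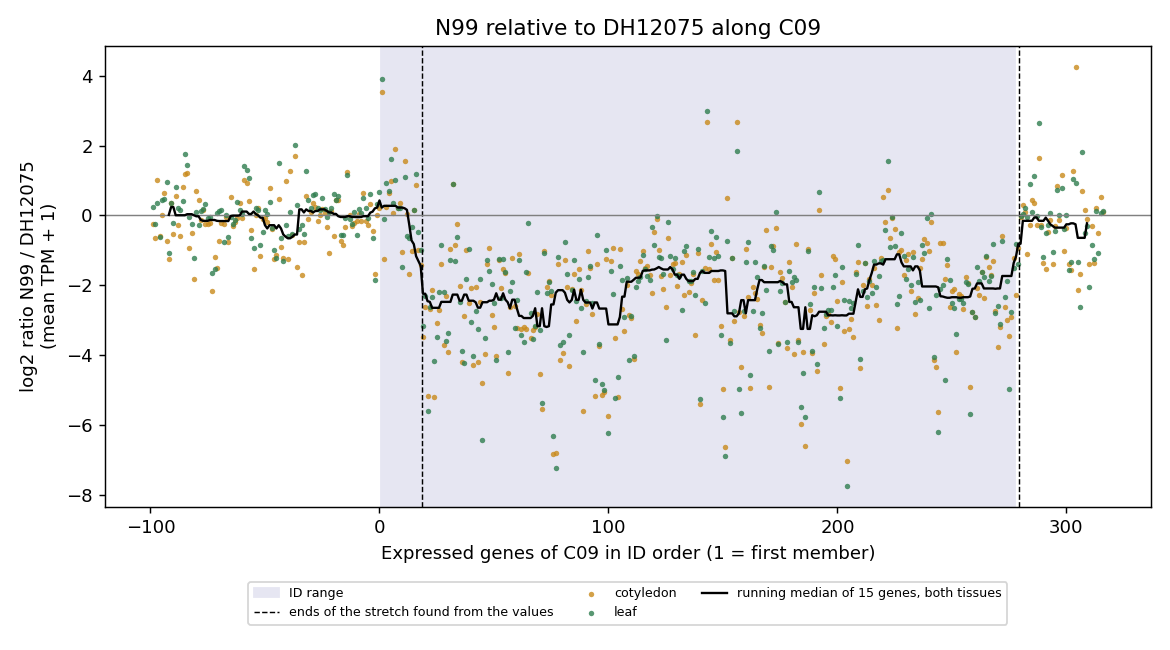
The log2 ratio of N99 to DH12075 (mean TPM + 1, vertical axis) for the expressed genes at the end of C09 in the order of their IDs (horizontal axis, 1 is the first member), in cotyledon (ochre) and leaf (green), with the running median of 15 genes over both tissues in black. The shaded range holds the 277 members, the dashed lines mark the stretch found from the values, and the median falls from about the line at 0 before the stretch to well below it inside, in both tissues.

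Inside the stretch the low level was not even. In consecutive groups of 20 expressed genes from BnaC09g071710.3DH to BnaC09g073120.3DH, between 19 and 20 genes of each group were at 10% or less. The longest run without exception held 49 expressed genes, from BnaC09g071430.3DH to BnaC09g072540.3DH. In the group from BnaC09g073130.3DH to BnaC09g073390.3DH only 7 of 20 were, with a median of 17.0% of DH12075, and from BnaC09g075630.3DH to BnaC09g075930.3DH it was 11 of 20. Median log2 ratios of these last 2 groups were -1.68 and -1.05 in cotyledon and -1.57 and -1.17 in leaf.

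The 3 most abundant members of the C09 segment were low in N99 to different degrees. BnaC09g075100.3DH had 137, 148 and 120 TPM in DH12075 cotyledon and 198, 217 and 239 TPM in DH12075 leaf. In N99 it was listed at 0, 0 and 0.110 TPM in cotyledon and 0, 0.0967 and 0 TPM in leaf, 0.0196% of DH12075. This gene, among the highest of the segment, was thus at or near 0 in all libraries of N99.

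BnaC09g074380.3DH retained 7.33%. It had 169, 150 and 134 TPM in DH12075 cotyledon and 163, 180 and 204 TPM in leaf, against 13.2, 7.34 and 12.9 TPM in N99 cotyledon and 16.0, 12.8 and 10.9 TPM in N99 leaf. It was detected in every N99 library, at a level that did not overlap with DH12075. BnaC09g071040.3DH retained 2.43%, with 259, 222 and 254 TPM in DH12075 cotyledon and 24.7, 29.3 and 53.1 TPM in leaf. In N99 it had 7.60, 4.33 and 5.38 TPM in cotyledon and 1.45, 0.789 and 0.875 TPM in leaf. Its cotyledon values were thus higher than its leaf values in both lines.

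Of the 259 members in the stretch, 46 escaped the level of 10% or less. Among them, 14 were at up to 20%, 16 above that and below 50%, and 16 at 50% or more, 6 of which were higher in N99. Together, the 16 held 164 of the 271 TPM that N99 had in the stretch on average, which is 60.5%. DH12075 had 3372 TPM there. The whole segment held 29 members at 50% or more (81.8% of all expressed genes) and 17 members higher in N99 (48.0% of all expressed genes), of which the remaining 13 and 11 lay before the stretch.

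The most abundant member at 50% or more was BnaC09g076520.3DH, at 63.7% of DH12075. It had 175, 139 and 174 TPM in DH12075 cotyledon against 120, 78.8 and 124 TPM in N99 cotyledon. In leaf it had 98.9, 111 and 122 TPM in DH12075 against 83.7, 62.3 and 54.6 TPM in N99. Within each tissue N99 lay below DH12075, but its cotyledon values overlapped the DH12075 leaf values.

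BnaC09g070770.3DH, a member before the stretch, was higher in N99. It had 11.9, 16.9 and 17.0 TPM in DH12075 cotyledon and 18.5, 24.2 and 23.8 TPM in leaf, against 56.1, 44.0 and 79.0 TPM in N99 cotyledon and 55.3, 51.2 and 29.5 TPM in N99 leaf. The lines did not overlap, and N99 stood at 281% of DH12075. BnaC09g070920.3DH, the fourth by level among members at 50% or more, was next to the boundary and is given above by its percentage. Its libraries ranged from 8.99 to 32.0 TPM in DH12075 and from 6.08 to 19.7 TPM in N99, so the lines overlapped.

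BnaC09g073770.3DH, in the middle of the stretch, was also higher in N99. It was listed at 0 in all 3 DH12075 cotyledon libraries and had 15.6, 14.7 and 7.50 TPM in DH12075 leaf. In N99 it had 8.08, 3.38 and 4.80 TPM in cotyledon and 32.0, 43.0 and 67.8 TPM in leaf. Leaf was above cotyledon in both lines, and N99 was above DH12075 in both tissues.

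Escaping members were partly neighbours. Between BnaC09g075550.3DH and BnaC09g075700.3DH, 7 consecutive members were all above 10%, at 30.2% to 276% of DH12075 with a median of 82.4%. Between BnaC09g073200.3DH and BnaC09g073250.3DH it was 4 members at 18.6% to 50.5%, and between BnaC09g075870.3DH and BnaC09g075920.3DH it was 3 members at 15.5% to 48.7%. Other escaping members lay outside these runs, and they did not all stand alone among low neighbours. One of these, BnaC09g073480.3DH, chosen after its values were seen, ranged from 0 to 0.246 TPM in DH12075 and from 4.33 to 8.61 TPM in N99.

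**Figure D3:**
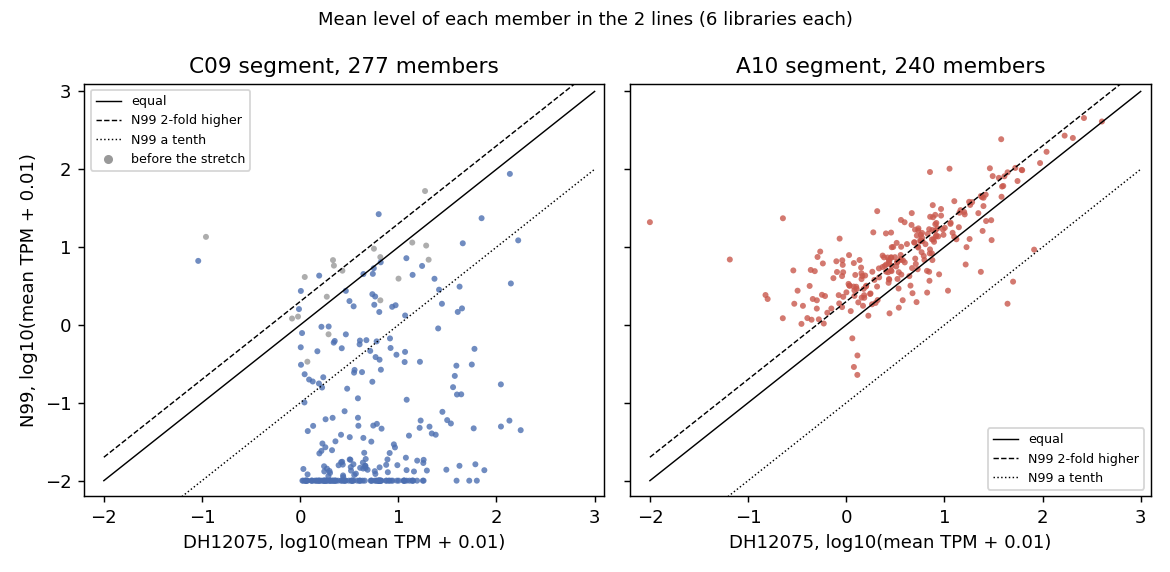
Mean level of each member over 6 libraries in N99 (vertical axis) against DH12075 (horizontal axis), both as log10 of TPM + 0.01, for the 277 C09 members and the 240 A10 members, with lines for equal levels, N99 2-fold higher and N99 at 10%. Points at the lower edge of the C09 panel are listed at or near 0 in N99, grey points are the 18 members before the stretch, and most A10 points lie between or near the lines for equal and 2-fold levels.

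The A10 segment was shifted upward in N99 by a moderate amount over most of its members. N99 had the higher mean for 205 of the 240 members (48.0% of all expressed genes). The fold of N99 over DH12075 was at least 1.5 and up to 3 for 107 members, above 3 for 64, above 1 and below 1.5 for 34, and below 1 for 35. The median fold was 1.98, with quartiles of 1.40 and 3.07. Over the 199 members with at least 1 TPM in DH12075 it was 1.81, since 41 members reached 1 TPM only in N99 and had to be higher there. The median log2 ratio was 0.79 in the segment, -0.11 over the rest of A10 and -0.03 over all expressed genes.

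N99 was higher without overlap of the 6 libraries for 113 members (12% of all expressed genes), lower for 7 (14.7%), and the lines overlapped for 120. Without N99 cotyledon replicate 2, N99 was higher without overlap for 127. The share of all expressed genes without that library is not given here. Within a tissue, with 3 libraries against 3, N99 was higher without overlap for 158 members in cotyledon (22.2% of all expressed genes) and 184 in leaf (30.6%). In the same way it was lower for 25 members in cotyledon (32.7% of all expressed genes) and 20 in leaf (28.6%).

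The 3 members of the highest level showed this range. BnaA10g031960.3DH had 160, 159 and 132 TPM in DH12075 cotyledon against 338, 143 and 119 TPM in N99 cotyledon. In leaf it had 343, 385 and 407 TPM in DH12075 against 675, 733 and 724 TPM in N99. It was higher in N99 leaf without overlap, while the cotyledon libraries of the lines overlapped.

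BnaA10g032740.3DH did not follow the segment, at 102% of DH12075. It had 474, 466 and 446 TPM in DH12075 cotyledon and 286, 357 and 387 TPM in leaf, against 490, 277 and 399 TPM in N99 cotyledon and 428, 363 and 507 TPM in leaf. The lines overlapped in both tissues. BnaA10g031240.3DH stood at 161%, with 171, 184 and 161 TPM in DH12075 cotyledon and 152, 164 and 177 TPM in leaf. In N99 it had 294, 166 and 276 TPM in cotyledon and 352, 287 and 248 TPM in leaf. Only the library with the high share of a few genes overlapped with DH12075.

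Some A10 members were near 0 in DH12075 and expressed in N99. The mean of DH12075 was at most 10% of N99 for 14 members (3.77% of all expressed genes). BnaA10g030700.3DH, chosen after its values were seen, was listed at 0 in all 6 DH12075 libraries. In N99 it had 26.3, 18.3 and 32.5 TPM in cotyledon and 16.7, 14.6 and 17.1 TPM in leaf. The most abundant of the 14, BnaA10g032980.3DH, chosen in the same way, ranged from 6.16 to 9.003 TPM in DH12075 and from 62.1 to 167 TPM in N99.

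The genes that lay below DH12075 in all 6 N99 libraries were few. N99 was lower without overlap for 7 A10 members, at 4.24% to 50.5% of DH12075, and 2 of them were at 10% or less (4.05% of all expressed genes). BnaA10g029830.3DH had 63.3, 68.4 and 69.2 TPM in DH12075 cotyledon and 102, 91.8 and 98.2 TPM in leaf. In N99 it had 9.26, 4.93 and 5.68 TPM in cotyledon and 11.5, 10.5 and 13.8 TPM in leaf. It was the highest of the 7, and leaf was above cotyledon in both lines on average.

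BnaA10g032850.3DH stood at 7.17%, with 23.6, 33.4 and 21.6 TPM in DH12075 cotyledon and 79.6, 69.0 and 73.4 TPM in leaf, against 2.66, 1.08 and 1.81 TPM in N99 cotyledon and 4.71, 5.76 and 5.53 TPM in N99 leaf. BnaA10g029060.3DH stood at 4.24%, with 59.9, 61.7 and 55.6 TPM in DH12075 cotyledon and 27.6, 22.8 and 36.4 TPM in leaf, against 3.14, 1.37 and 1.48 TPM in N99 cotyledon and 1.92, 1.14 and 2.14 TPM in N99 leaf. BnaA10g031440.3DH stood at 25.3%, between 6.83 and 14.4 TPM in DH12075 and between 1.84 and 4.13 TPM in N99. The 4 genes lay apart from one another in the order of IDs. BnaA10g032840.3DH, next to BnaA10g032850.3DH, was also lower in N99, with a mean of 4.80 TPM against 23.5 TPM in DH12075, though its libraries overlapped.

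The boundaries of the A10 segment were less clear than those on C09, and whether they were steps or gradual changes was not tested. The first member, BnaA10g028870.3DH, had 0.598, 0.294 and 0.784 TPM in DH12075 cotyledon and 0.0568, 0.0253 and 0.0992 TPM in leaf, against 4.48, 3.42 and 3.66 TPM in N99 cotyledon and 1.60, 1.06 and 2.26 TPM in N99 leaf. The nearest expressed gene before it, BnaA10g028860.3DH, went the other way at 27.5% of DH12075. The last member, BnaA10g033100.3DH, was at 178%, between 0.462 and 0.652 TPM in DH12075 and between 0.800 and 1.25 TPM in N99. The nearest expressed gene after it, BnaA10g033110.3DH, was at 357%. So single genes did not mark either end.

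In groups of 20 expressed genes the median log2 ratio was 0.16 from BnaA10g028100.3DH to BnaA10g028430.3DH, 0.35 from BnaA10g028440.3DH to BnaA10g028860.3DH and 0.82 in the first group of members. Over the 12 groups of members it lay between 0.70 and 1.20, the highest being that from BnaA10g030450.3DH to BnaA10g030810.3DH. It was still 0.89 from BnaA10g033110.3DH to BnaA10g033490.3DH, outside the range, and 0.23 and -0.02 in the next 2 groups. Summing the log2 ratio less 0.39, which is 50% of the segment's median, placed the best run from BnaA10g028640.3DH to BnaA10g033900.3DH. This run held 295 expressed genes, with all 240 members and 55 outside the range of IDs. Not all of the 55 were raised, since from BnaA10g033500.3DH to BnaA10g033830.3DH only 12 of 20 genes had the higher mean in N99. The run ended on a single gene with a log2 ratio of 2.41, BnaA10g033900.3DH. The 75 expressed genes that followed to the end of the chromosome had a median log2 ratio of -0.05, so the raised stretch, like the low stretch on C09, did not reach the last ID.

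**Figure D4:**
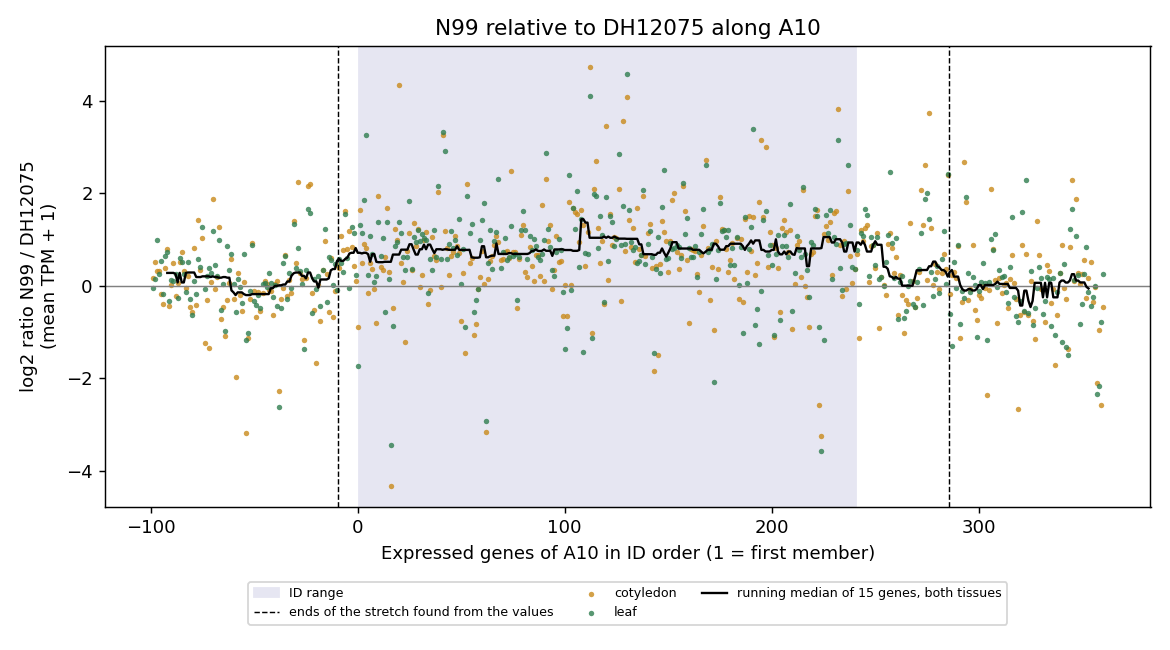
The log2 ratio of N99 to DH12075 (mean TPM + 1, vertical axis) for the expressed genes at the end of A10 in the order of their IDs (horizontal axis, 1 is the first member), in cotyledon (ochre) and leaf (green), with the running median of 15 genes over both tissues in black. The median rises before the shaded range of 240 members, stays above 0 throughout it, and returns to the line at 0 some genes after it. A running median spreads a step over several genes, so the shape of the rise is not read. The dashed lines mark the ends of the run found from the values.

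Leaf was compared with cotyledon within each line, a contrast that was not used to choose the members. The test was limma on log2(TPM + 1) across all genes that averaged 1 TPM or more in the line, with Benjamini-Hochberg adjustment over all of them and a threshold of 0.05. In DH12075, 143 of the 272 C09 members tested passed it, or 52.6% (50.4% of all genes tested). Of these, 58 were higher in leaf (20.8% of all genes tested) and 85 lower (29.5%). For A10, 101 of 199 passed or 50.8%, with 44 higher and 57 lower in leaf. The median log2 difference was -0.06 over the C09 members, -0.09 over the A10 members and -0.08 over all genes. The shares of both segments were thus near that of all genes. Without replicate 1 of each tissue, the counts were 67 for C09 and 53 for A10, and without replicate 2 they were 86 and 67.

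In N99, only 49 of the C09 members reached the level for the test. Of them 16 passed or 32.7% (29.4% of all genes tested), with 10 higher in leaf (17.2% of all genes tested) and 6 lower (12.2%). Among the A10 members, 70 of 236 passed or 29.7%, with 40 higher and 30 lower. Again, the shares were near that of all genes. Without replicate 2 of each tissue, the counts were 4 for C09 and 20 for A10, and without replicate 3 that for A10 was 46. Without N99 cotyledon replicate 2 alone, they were 18 and 65.

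The C09 members named for the largest tissue differences in DH12075 were lower in N99 in both tissues. Most members of the segment were lower there by the way they were chosen, so nothing is read from this. BnaC09g073190.3DH rose from 12.3, 12.5 and 8.45 TPM in DH12075 cotyledon to 69.9, 82.6 and 66.6 TPM in leaf, a log2 difference of 2.63 ± 0.168 (SE, limma adjusted p = 9.02e-05). In N99 it had 1.32, 0.753 and 0.803 TPM in cotyledon and 5.29, 5.97 and 4.46 TPM in leaf. There leaf was higher as well, by 1.68 ± 0.221 (adjusted p = 1.15e-05), at a far lower level.

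BnaC09g073780.3DH rose from 5.45, 5.06 and 6.89 TPM to 27.9, 41.7 and 21.5 TPM in DH12075 and was listed at 0 in all N99 libraries. BnaC09g071040.3DH, given above among the abundant members, fell by 2.82 on the log2 scale in DH12075 leaf. BnaC09g070870.3DH, which lies before the stretch, fell from 35.0, 28.1 and 39.7 TPM to 6.41, 5.97 and 6.95 TPM in DH12075, and had 8.18, 8.09 and 13.8 TPM in N99 cotyledon and 4.50, 2.83 and 3.90 TPM in N99 leaf. All 3 genes passed the limma test in DH12075. In N99, BnaC09g070870.3DH fell in leaf as well, by 1.19 ± 0.260 (log2, SE, limma adjusted p = 0.00148).

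Among C09 members that averaged 10 TPM or more in N99, 1 rose and 1 fell with no overlap between the tissues, as the rule for named genes selects them. BnaC09g073770.3DH, the gene listed at 0 in DH12075 cotyledon, was higher in N99 leaf by 2.92 ± 0.322 (log2, SE). BnaC09g073210.3DH, in the run of neighbours at 18.6% or more, was lower in N99 leaf by 1.12 on the log2 scale, with 36.7, 26.7 and 34.3 TPM in cotyledon and 13.6, 12.1 and 17.7 TPM in leaf. The latter gene had 134, 89.6 and 99.7 TPM in DH12075 cotyledon and 32.5, 26.0 and 41.6 TPM in DH12075 leaf, so leaf was lower in both lines.

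On A10, some of the leading tissue differences passed the test in both lines and some did not. BnaA10g030170.3DH rose in leaf in DH12075, from 18.2, 15.8 and 12.9 TPM to 69.6, 84.6 and 63.1 TPM, by 2.14 ± 0.161 (log2, SE). In N99 it rose from 42.6, 20.004 and 23.6 TPM to 136, 179 and 146 TPM, by 2.45 ± 0.327. The direction was the same, and N99 was higher than DH12075 in each tissue. BnaA10g029860.3DH had 7.18 to 9.30 TPM in DH12075 cotyledon and 34.5 to 45.5 TPM in leaf. In N99 it had 10.9 to 17.9 TPM in cotyledon and 34.2 to 66.6 TPM in leaf, so the lines overlapped in leaf. BnaA10g030750.3DH had 12.2 to 24.8 TPM in N99 cotyledon and 94.5 to 219 TPM in leaf. In DH12075 it had 9.75 to 13.8 TPM in cotyledon and 40.3 to 60.3 TPM in leaf, so the lines overlapped in cotyledon.

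BnaA10g029040.3DH was lower in leaf in N99, from 50.05, 44.5 and 68.9 TPM to 8.87, 4.39 and 8.50 TPM. In DH12075 it went from 12.1, 18.5 and 18.4 TPM in cotyledon to 1.80, 3.002 and 1.64 TPM in leaf. The cotyledon level was higher in N99 and the direction was shared. BnaA10g029710.3DH was likewise lower in leaf in DH12075, from 22.3 to 30.7 TPM in cotyledon to 4.55 to 8.17 TPM in leaf. In N99 it had 9.75, 6.12 and 11.6 TPM in cotyledon and 2.63, 2.81 and 2.96 TPM in leaf. This gene thus went against the segment, with N99 below DH12075 without overlap in each tissue. BnaA10g032840.3DH fell by 2.20 on the log2 scale in DH12075 leaf, while in N99 its difference was -0.49 (limma adjusted p = 0.149). BnaA10g032390.3DH fell by 2.71 in N99 leaf, while in DH12075 its difference was 0.41 (adjusted p = 0.543).

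Across the 195 A10 members tested in both lines, the log2 difference of leaf to cotyledon correlated between the lines at r = 0.61, as a description over genes that share the same libraries. Of these, 40 passed in both lines or 20.5% (21.0% of all genes tested in both lines), 34 of them in the same direction (19.9% of all genes), 59 in DH12075 only (29.3%) and 15 in N99 only (7.77%). Over the 44 C09 members tested in both lines r was 0.89, with 13 or 29.5% passing in both, all 13 in the same direction. Over all 36652 genes tested in both lines it was 0.68.

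**Figure D5:**
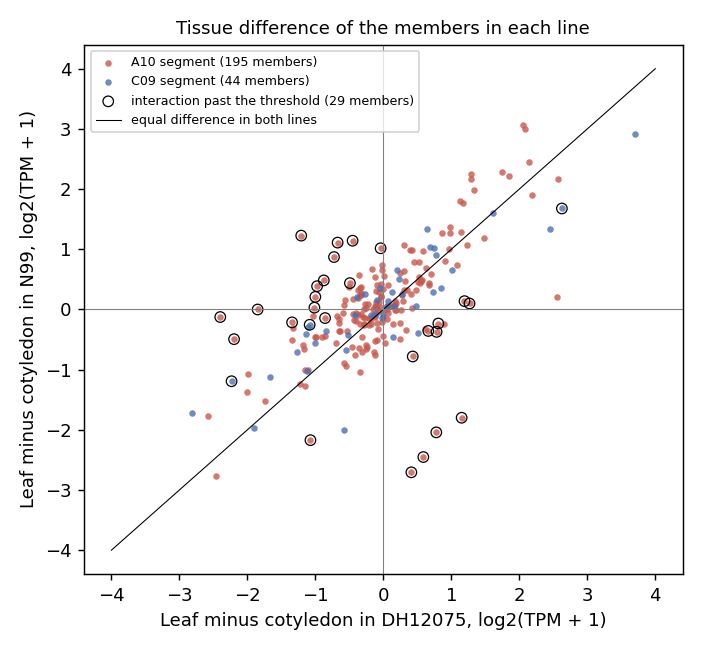
Leaf minus cotyledon in N99 (vertical axis) against DH12075 (horizontal axis), both on log2(TPM + 1), for the 195 A10 members (red) and 44 C09 members (blue) tested in both lines, with the line of equal difference. Circles mark the 29 plotted members whose difference itself differed between the lines in limma, 26 on A10 and 3 on C09. The difference had the same sign in both lines for 129 of the A10 members and 38 of the C09 members.

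Whether the tissue difference itself differed between the lines was tested with an interaction term over all 12 libraries. For C09, 50 of 223 members tested passed or 22.4% (10.6% of all genes tested), with 32 having the larger leaf minus cotyledon value in N99 (7.69% of all genes tested) and 18 the smaller (2.95%). In 46 of the 50, the N99 mean was at most 10% of DH12075. For a gene near 0 in N99 the interaction is little else than the DH12075 tissue difference with its sign turned, so this share is tied to how the members were chosen and nothing is read from it. Among the 44 C09 members tested in both lines, 3 passed the interaction test or 6.82% (9.24% of all genes tested in both lines), and among the 195 such A10 members 26 passed or 13.3%. For A10, 30 of the 230 members tested passed or 13.04%, with 17 larger and 13 smaller. Without replicate 1 of each group 6 passed in each segment, and without replicate 2 it was 19 for C09 and 9 for A10. With a pseudocount of 0.1 in place of 1, 21 C09 members passed.

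The tissue difference had the same sign in both lines for 129 of the 195 A10 members tested in both. Over all 36652 genes tested in both lines it had the same sign for 26496. Among the A10 members of opposite sign were the following. BnaA10g030640.3DH, chosen after its values were seen, rose by 0.78 ± 0.132 on the log2 scale in DH12075 leaf and fell by 2.04 ± 0.326 in N99 leaf (interaction, limma adjusted p = 0.0005661). BnaA10g028900.3DH, chosen likewise, fell by 1.21 ± 0.160 in DH12075 leaf and rose by 1.23 ± 0.289 in N99 leaf (adjusted p = 0.0001979). These genes lay inside the raised segment, and their differences were larger than the spread between replicates of either line.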

How the data were processed

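RNA from cotyledons and true leaves was sequenced, and groups came from the sample labels. Per the methods and labels, the authors trimmed reads with Trimmomatic (version 0.32), quantified both lines with Salmon (version 1.10.0) against transcripts of DH12075 v3.1 and obtained gene-level values with tximport. The authors deposited TPM, without log transformation or filter, and each library sums to 1000000. TPM keep no depth, so no counting error is given. The series' 12 other libraries were not used.

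The members and the rules for naming genes were chosen with earlier results of these data known. Genes named were the first and last members with their expressed neighbours, the 3 most abundant members of each segment, at most 4 members going against it, and at most 2 members rising and 2 falling in leaf per line, averaging 10 TPM or more, without overlap. No overlap means that all libraries of one group lie above all of the other. Tests were run in R 4.3.3 with limma 3.58.1 (lmFit, then eBayes with a variance trend) on log2(TPM + 1), over all genes averaging 1 TPM or more in the fit, and were checked on simulated data. Other steps used Python 3.11.15, numpy 2.4.6, pandas 2.3.3 and matplotlib 3.10.9. Alternatives were other pseudocounts, filters, cut-offs, rescaling without the 10 most abundant genes, a replicate block and leaving out replicates. Those without N99 cotyledon replicate 2 alone, and the median over members at 1 TPM in DH12075, were added after the data were seen.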

Additional observations from a re-analysis of the deposited data

Results flagged for a closer look

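In both segments there were members whose leaf minus cotyledon difference differed between DH12075 and N99 by the limma interaction test. Among members tested in both lines they numbered 3 of 44 on C09 and 26 of 195 on A10, against 9.24% of all genes tested in both lines.

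Among the members given in the results for their tissue difference, 7 differed in this way. Of these, BnaA10g028900.3DH and BnaA10g030640.3DH were chosen after these values were seen, so the count of 7 is no separate result. For BnaA10g028900.3DH the difference in N99 less that in DH12075 was 2.43 on the log2 scale, and for BnaA10g030640.3DH it was -2.82, both given in the results with opposite signs in the lines. For BnaA10g032390.3DH it was -3.12, with 13.8, 11.5 and 56.9 TPM in N99 cotyledon, 3.64, 2.89 and 1.14 TPM in N99 leaf, and between 0.676 and 5.08 TPM in all DH12075 libraries. For BnaA10g032840.3DH it was 1.70, with 37.3, 40.3 and 39.4 TPM in DH12075 cotyledon and 8.50, 10.7 and 4.98 TPM in leaf, against 7.0, 5.03 and 5.18 TPM in N99 cotyledon and 5.45, 2.79 and 3.36 TPM in leaf. On C09 it was 1.04 for BnaC09g070870.3DH, -0.95 for BnaC09g073190.3DH and -2.16 for BnaC09g073780.3DH. The last of these was listed at 0 in all N99 libraries, so its value is the DH12075 difference with the sign turned.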

How the results depend on the processing

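TPM give no depth, and N99 can differ in sequence from the DH12075 transcripts used, so low N99 values cannot be split into absent transcripts and transcripts that could not be assigned. Counts of calls depended on the replicates. Leaving out replicates in turn gave, for leaf against cotyledon, 67 to 144 C09 and 53 to 110 A10 members in DH12075 and 4 to 16 and 20 to 64 in N99, and for the interaction 6 to 37 and 6 to 20. Without N99 cotyledon replicate 2 alone, N99 gave 18 and 65 and the interaction 52 and 31. BnaC09g073210.3DH and BnaA10g032390.3DH missed the threshold in N99 without replicate 2 (limma adjusted p = 0.05203 and 0.05266). Deviations of cotyledon and leaf libraries with the same replicate number correlated at -0.31 to 0.19. Whether such numbers mark shared plants is not stated in the sources used here. A replicate block gave 30 interaction calls on C09 in place of 50 and 20 on A10 in place of 30. Other changes were 26 C09 members called in N99 after rescaling without the 10 most abundant genes, 46 A10 members called in N99 with no filter, and 21 C09 interaction calls with a pseudocount of 0.1.

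The directions between the lines did not change under any alternative. Of the 136 C09 members with at least 5 TPM, 118 were lower and 4 higher in N99 without overlap. The matching shares of all genes at 5 TPM are not given here, so these counts show direction only. The C09 median log2 ratio was -3.14 over these, -4.57 with a pseudocount of 0.1, -2.16 after rescaling, -2.09 over members at 1 TPM in DH12075, and -2.07 to -2.05 when leaving out replicates. The A10 median was 0.93 at 5 TPM and 0.98 with a pseudocount of 0.1. A10 members lower in N99 without overlap numbered 7 to 13 when leaving out replicates. On A10, N99 was at most 5% of DH12075 for 1 member and at most 20% for 4, and DH12075 was at most 5% of N99 for 3 members and at most 20% for 35. Without BnaC09g076520.3DH, the C09 member with the highest mean over all 12 libraries, the C09 sum of N99 in leaf was 10.2% of DH12075.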
